A study of Mus musculus with 4 samples.

Results

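The Peg10-Sgce cluster is a block of imprinted genes on proximal mouse chromosome 6. Its genes Casd1, Sgce, Peg10, Ppp1r9a, Pon3, Pon2 and Asb4 were followed in primed pluripotent cells with and without c-Jun. These 7 genes, of 29267 in the deposited tables, were taken by name as members of the locus, and neighbours in it that are not known to be strongly imprinted were included. They were selected on their names and on measured values, since the locus was picked with the expected counts, TPM and fold changes of these genes between knockout and wild type already known. Their levels and fold changes are therefore given as a description, with no p-value, and the number of them that were called is set only beside that of all genes. All 7 genes had reads in at least 3 of the 4 libraries, and 6 of them passed the filter on low counts. Pon3 did not pass and is given by its counts.

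RNA-seq was done on 4 libraries of mouse induced epiblast stem cells (iEpiSCs): 2 carried the genotype c-Jun-/- and the other 2 were wild type. Both genotypes were derived in the same way, from embryonic stem cells kept in N2B27 with 2i and LIF and then moved to medium with ActivinA, bFGF and the Wnt pathway inhibitors XAV939 and IWR-1. c-Jun, the product of Jun, pairs with Fos and other proteins to form the transcription factor AP-1. The labels give neither the strain, the deleted part of Jun, nor whether the replicates, numbered 2 and 3 in each genotype, were separate cultures or clones. Adjusted p-values therefore measure only the spread between these samples, which may be technical, and genotype cannot be told apart from cell line.

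Imprinted genes are transcribed mainly from the chromosome inherited from 1 parent, a state set by DNA methylation laid down in the germ line and kept through later divisions. In this cluster the germline mark lies at the shared start region of Peg10 and Sgce, is methylated on the maternal chromosome, and leaves both genes expressed from the paternal chromosome. Asb4 and, in some tissues, Ppp1r9a are known as maternally expressed, and the cluster is best known for its part in placental development. The tables hold no allele information, so every level below is the sum over both parental copies.

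Peg10 was about 2.07-fold higher and Sgce about 1.63-fold higher in the knockout libraries, while Asb4 was 6.28-fold higher in wild type. Casd1, Ppp1r9a and Pon2 lay between, with log2 fold changes from -0.31 to -0.16. The paternally expressed pair and the maternally expressed Asb4 thus stood on opposite sides within 832 kb of chromosome 6. Fewer expressing cells and less RNA per cell cannot be told apart in bulk libraries.

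Selected sequences of these genes are shown first, and their part in the levels was not tested. The shared start region of Peg10 and Sgce is not among them. Peg10 descends from a retrotransposon and makes a longer protein by a -1 ribosomal frameshift, so its frameshift site is printed from the GENCODE M21 transcript Peg10-202 (GRCm38, plus strand), with the heptamer in capitals. The coding sequence of Peg10-202 ends within the printed stretch, at 4755348, while that of Peg10-201 runs on past it. In that transcript the first reading frame has 376 codons, while in the annotated extended frame of Peg10-201 it has 1005 codons.
Peg10 frameshift site, chr6:4755299-4755361: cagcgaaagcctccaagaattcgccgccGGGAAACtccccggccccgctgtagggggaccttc
Asb4 is shown by the bases upstream of its 2 annotated starts, because its level differed most and its estimated isoform use is described below. These and the next promoters are from RefSeq (GRCm38.p6), with every CpG in capitals and with exon bases left out.
Asb4, upstream of the start at 5383386, chr6:5383136-5383385, plus strand: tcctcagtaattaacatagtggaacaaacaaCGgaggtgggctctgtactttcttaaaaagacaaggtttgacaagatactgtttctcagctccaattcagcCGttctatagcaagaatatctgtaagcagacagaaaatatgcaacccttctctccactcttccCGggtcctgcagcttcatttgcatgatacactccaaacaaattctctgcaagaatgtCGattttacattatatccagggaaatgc
Asb4, upstream of the start at 5390410, chr6:5390160-5390409, plus strand: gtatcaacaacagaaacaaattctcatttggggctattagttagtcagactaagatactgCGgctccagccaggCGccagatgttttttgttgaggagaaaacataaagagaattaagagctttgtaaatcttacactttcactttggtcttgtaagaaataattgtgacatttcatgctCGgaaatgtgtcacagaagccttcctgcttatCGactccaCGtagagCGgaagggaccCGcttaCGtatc
Casd1 and Pon2, whose levels differed little, are shown for contrast.
Casd1, chr6:4600661-4600838, plus strand: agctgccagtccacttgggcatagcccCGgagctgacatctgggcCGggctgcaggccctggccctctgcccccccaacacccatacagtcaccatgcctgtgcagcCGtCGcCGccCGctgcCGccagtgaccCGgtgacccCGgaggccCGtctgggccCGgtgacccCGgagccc
Pon2, chr6:5298456-5298590, minus strand: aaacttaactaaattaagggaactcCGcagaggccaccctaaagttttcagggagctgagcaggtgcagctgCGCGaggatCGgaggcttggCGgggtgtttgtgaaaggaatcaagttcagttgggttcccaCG

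The RefSeq table held 8 windows for 5 of the 7 genes, each reaching from 250 bases before to 50 bases after a start. It held none for Peg10 or Sgce, so the counts below do not cover their shared start region. The 2 Asb4 windows had 6 and 8 CpGs and a GC content of 40.3% and 42.3%. Over all 32851 windows of this length the median was 7 CpGs, with quartiles of 3 and 20, and the median GC content was 52.7%. The Asb4 starts were therefore near the median in CpGs, as was the Pon3 window with 7. The Pon2 window held 31 CpGs. The 2 Casd1 windows held 23 (the one printed in part above) and 5, and the 2 Ppp1r9a windows held 48 and 10, so annotated starts of 1 gene differed widely.
AP-1 dimers are known to bind the letters TGACTCA or TGAGTCA, and related dimers the letters TGACGTCA. The search for the first kind used TGANTCA, with any letter at the centre, so its counts are wider than that site. On both strands, TGANTCA was found in 1 of the 8 windows, that of Pon3, and in 7.81% of all windows. The Pon3 match reads TGAATCA, with neither C nor G at its centre. TGACGTCA was found in none of the 8, against 1.79% of all windows. A match or its absence concerns only the letters in these windows, and neither motif contains the other.

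Sequencing depth was modest. Total expected counts were between 4666559 and 6341342 per library, so that the floor of 3 counts, which a library with 0 counts cannot exclude, was 0.473 to 0.643 CPM (counts scaled to 1000000 per library). Intervals and floors of this kind cover counting error only. Jun was at 28.9 and 29.6 CPM in the knockout libraries and at 106 and 121 CPM in the wild-type libraries. Across all 12598 tested genes the median log2 fold change was 0.0015, and for the 571 tested on chromosome 6 it was -0.02. Chromosome 8 stood apart, with a median of 0.51 and 391 of 684 genes higher. This is given beside the genes named from it or beside their list. CPM values are scaled by library and TPM values also by gene length, and levels of different genes are compared only in TPM. A value after ± is the SD of the 2 libraries for a level and the standard error for a log2 fold change, which is knockout over wild type throughout.

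**Figure D1:**
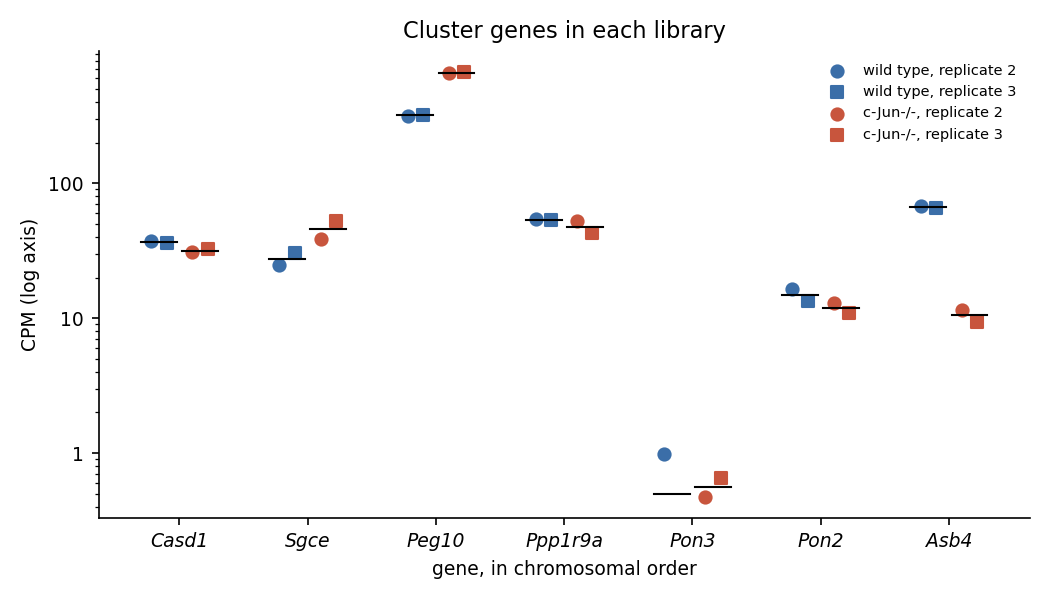
CPM on a log axis for the 7 cluster genes in chromosomal order, with 1 point per library and a black bar at the mean of each genotype; wild-type replicate 3 had 0 counts of Pon3 and has no point. Peg10 and Sgce sit higher in both c-Jun-/- libraries, and Asb4 lies at 65.5 and 67.8 CPM in wild type and at 9.35 and 11.6 CPM in c-Jun-/-.

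Peg10 (ENSMUSG00000092035, protein coding, plus strand, chromosome 6 from 4747306 to 4760517, GRCm38) encodes a gag-pol-like protein that is needed for the placenta. It had 652 and 667 CPM in knockout replicates 2 and 3, and 314 and 323 CPM in wild-type replicates 2 and 3. Both knockout libraries were high, both wild-type libraries low, and the gap between them was far wider than the spread within either genotype. The means were 660 ± 10.6 and 318 ± 6.28 CPM, and the log2 fold change was 1.05 ± 0.06. In TPM, Peg10 was at 265 and 264 in the knockout and at 118 and 126 in wild type. It was the most abundant of the 7 genes and ranked 909 by mean TPM, above 95.3% of the genes with TPM above 0.
The length that RSEM assigns to a gene moves with its estimated isoform use. The effective length of Peg10 was 4405 and 4396 bases in the knockout libraries and 4869 and 4630 bases in wild type, so the knockout was shorter by a mean of 349 bases. This length shift enters the TPM and not the CPM. GENCODE M21 gives Peg10 transcripts of 6567 to 6667 bases, longer than the deposited gene length of 4600 to 5077 bases. The authors' annotation therefore differed from GENCODE M21 at Peg10, and the isoform behind the shift was not identified. Fitted with limma on TPM the log2 fold change was 1.11, and with effective length offsets it was 1.16.

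Sgce (ENSMUSG00000004631, protein coding, minus strand, chromosome 6 from 4674350 to 4747207) encodes epsilon-sarcoglycan, a membrane glycoprotein of the dystrophin-associated complex. Its annotated start lies head to head with that of Peg10, with 98 bases between them. Sgce was at 38.9 and 52.2 CPM in knockout cells and at 24.9 and 30.2 CPM in wild-type cells. The genotypes did not overlap, but the knockout libraries lay further apart from each other than those of Peg10 did. The means were 45.5 ± 9.44 and 27.6 ± 3.75 CPM, and the log2 fold change was 0.71 ± 0.16. That value rested on few libraries, being 0.49 without knockout replicate 3, 0.57 without wild-type replicate 2 and 0.92 without knockout replicate 2. Per length, Sgce stood at 25.3% of the Peg10 level.
Peg10 and Sgce differed in the same direction in unequal measure. The ratio of Peg10 to Sgce TPM was 5.32 and 4.17 in the knockout and 3.64 and 3.22 in wild type, without overlap.

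Asb4 (ENSMUSG00000042607, protein coding, plus strand, chromosome 6 from 5383386 to 5433022) encodes an ankyrin repeat and SOCS box protein, a substrate receptor of cullin 5 ubiquitin ligases. It reached 67.8 and 65.5 CPM in wild type and 11.6 and 9.35 CPM in the knockout. The wild-type libraries were both high and nearly equal, and the knockout libraries were both low. The means were 10.5 ± 1.57 and 66.7 ± 1.66 CPM, and the log2 fold change was -2.65 ± 0.17. These rest on 73 and 43 counts against 343 and 351. In TPM the means were 6.27 ± 1.40 and 48.4 ± 0.27.
Asb4 also differed in length. Its effective length was 2853 and 3082 bases in the knockout and 2575 and 2442 bases in wild type. GENCODE M21 annotates a 3286-base isoform from the upstream start and a 1143-base isoform with a downstream start. With those lengths, the deposited gene length corresponds to a short-isoform share of 10.2% and 0% of Asb4 transcripts in the knockout, and of 23.5% and 29.8% in wild type. The long isoform alone then had 6.52 and 5.28 TPM in the knockout and 36.9 and 34.1 TPM in wild type, means that differ 6.01-fold. The isoform shares come from an estimate over few reads in the knockout, and assume that the authors' annotation used these lengths. Among the 9033 tested genes with at least 2 isoforms, 30.0% had effective lengths that did not overlap between the genotypes, and Peg10, Ppp1r9a and Asb4 were among them.

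Of the remaining genes, Casd1 (ENSMUSG00000015189, plus strand, 4600839 to 4643355) encodes a Golgi sialic acid O-acetyltransferase. It had 30.9 and 32.4 CPM in the knockout and 37.4 and 35.8 CPM in wild type, a log2 fold change of -0.21 ± 0.15. In TPM it was at 16.7 and 32.1 in the knockout and 29.1 and 17.2 in wild type, where the genotypes overlapped. Its effective length was 3305 and 1759 bases in the knockout and 2351 and 3780 bases in wild type, and the log2 fold change changed sign to 0.052 with limma on TPM and 0.094 with length offsets.
Ppp1r9a (ENSMUSG00000032827, plus strand, 4902917 to 5165661) encodes neurabin, an actin-binding scaffold for protein phosphatase 1. It had 52.2 and 42.6 CPM in the knockout and 54.0 and 53.0 CPM in wild type. The groups were separated by less than 1 CPM at their nearest libraries, and the log2 fold change was -0.16 ± 0.13.
Pon2 (ENSMUSG00000032667, minus strand, 5264147 to 5298455) and Pon3 (ENSMUSG00000029759, minus strand, 5220852 to 5256286) encode paraoxonases, lactone-cleaving enzymes. Pon2 had 82 and 50 counts, or 10.5 and 8.44 TPM, in the knockout and 83 and 72 counts, or 13.5 and 11.0 TPM, in wild type. Its CPM gave a log2 fold change of -0.31 ± 0.24. Pon3 had 3 and 3 counts in the knockout and 5 and 0 in wild type, at or near the floor in every library, so no fold is given.

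Of the 6 tested genes, 2 were called higher (Peg10 and Sgce) and 1 lower (Asb4) at a Benjamini-Hochberg adjusted p under 0.05 from the edgeR quasi-likelihood test, against 8.21% called higher and 7.32% called lower of all tested genes. The CPM ranges of the genotypes did not overlap for any of the 6, against 53.9% of all tested genes. They were higher in the knockout for 2 genes, against 27.0% of all, and lower for 4, against 26.9%. A log2 fold change of 1 or more was found for 1 gene (Peg10), against 3.03% of all, and of -1 or less for 1 gene (Asb4), against 2.96%. Because the genes were chosen with this contrast known, nothing is read from these shares. The call of Sgce was not kept with limma on TPM, with effective length offsets, without knockout replicate 3 or without wild-type replicate 2.

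**Figure D2:**
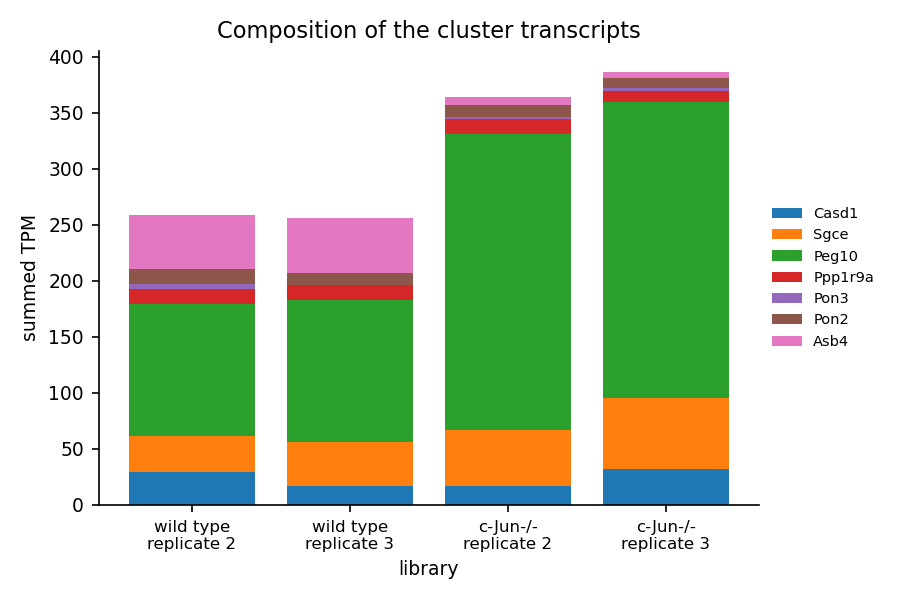
Summed TPM of the 7 genes in each library, stacked by gene. The sums are 259 and 256 in wild type and 364 and 386 in c-Jun-/-; the Peg10 segment is the largest in each bar, and the Asb4 segment is large only in the wild-type bars.

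The make-up of the cluster's RNA was different in the 2 genotypes. In wild type the order by mean TPM was Peg10 at 122, Asb4 at 48.4, Sgce at 35.8, Casd1 at 23.1, Ppp1r9a at 13.7, Pon2 at 12.3 and Pon3 at 2.27. In the knockout it was Peg10 at 265, Sgce at 56.6, Casd1 at 24.4, Ppp1r9a at 11.2, Pon2 at 9.47, Asb4 at 6.27 and Pon3 at 2.63. Asb4 took the second place in wild type and the sixth in the knockout. Ppp1r9a and Pon2 were the only neighbours in the wild-type order above Pon3 whose ranges overlapped, and they also overlapped in the knockout. Peg10 accounted for 72.7% and 68.4% of the summed TPM in the knockout and 45.5% and 49.3% in wild type. Asb4 accounted for 1.99% and 1.37% in the knockout, and for 18.6% in wild-type replicate 2 and a little more in replicate 3. The ratio of Peg10 to Asb4 TPM was 36.5 and 50.1 in the knockout and 2.45 and 2.60 in wild type.

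**Figure D3:**
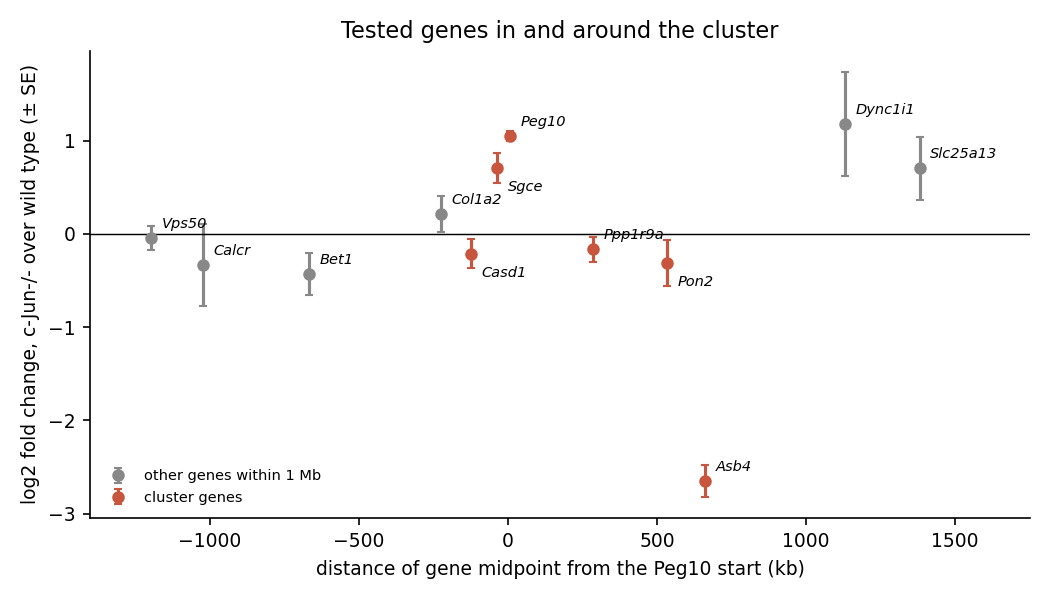
Log2 fold change, knockout over wild type, with its standard error against the distance of the gene midpoint from the Peg10 start, for the 6 tested cluster genes and the 6 other tested genes within 1 Mb. The cluster genes Peg10, Sgce and Asb4 lie furthest from 0 among the cluster genes, and genes between and around them lie nearer to 0 or have wide errors.

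Other genes of the region gave a frame for these values. Within 1 Mb on each side of the cluster the tables list 19 further genes, 11 of them protein coding, of which 6 passed the filter. Of these 6, 0 were called (edgeR quasi-likelihood, Benjamini-Hochberg), 2 had an unadjusted p under 0.05, and 0 were called by DESeq2, limma voom or limma on TPM, against 15.5% of all tested genes. Col1a2, which encodes a collagen I chain and lies on the Casd1 side, was at 0.22 ± 0.19. Bet1, a vesicle transport protein, was at -0.43 ± 0.23, Vps50, a vesicle recycling protein, at -0.05 ± 0.13 and the calcitonin receptor gene Calcr at -0.33 ± 0.44.
Dync1i1, a dynein intermediate chain, was at 1.18 ± 0.56 on 17, 31, 9 and 12 counts in knockout replicates 2 and 3 and wild-type replicates 2 and 3. It was not called (edgeR adjusted p = 0.167). Without knockout replicate 2 it passed, at 1.73 (edgeR adjusted p = 0.0422), and without knockout replicate 3 it was at 0.42 (edgeR adjusted p = 0.80), the ends of its range over the other fits. Slc25a13, a mitochondrial aspartate-glutamate carrier, was at 0.70 ± 0.33 (edgeR adjusted p = 0.168). In a window of 2 Mb on each side, Samd9l was also called higher, at 0.57 (edgeR adjusted p = 0.0128). It was not called with DESeq2 (adjusted p = 0.111), limma on TPM (0.179) or length offsets (0.0544), nor by edgeR without replicate 2 of the knockout (0.083) or of wild type (0.0948).

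**Figure D4:**
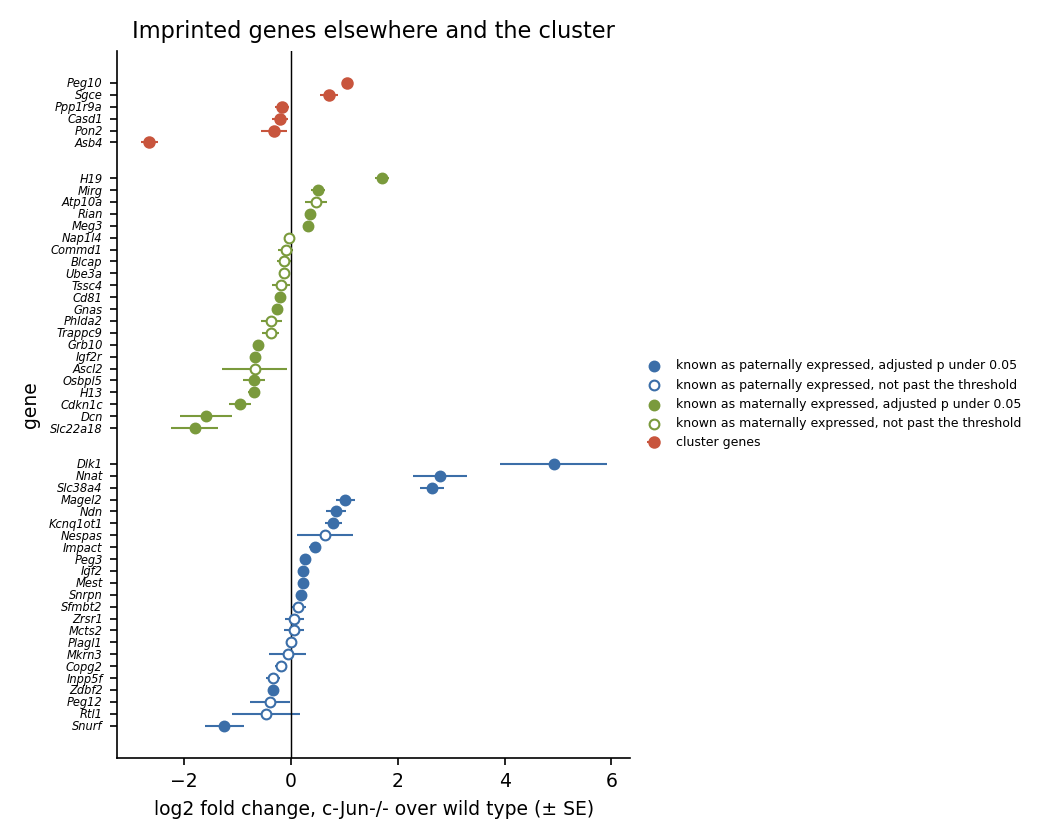
Log2 fold change, knockout over wild type, with its standard error for the tested cluster genes (red) and the tested imprinted genes elsewhere, known as maternally expressed (green) or paternally expressed (blue); filled points passed an adjusted p of 0.05 by edgeR. Called genes of both parental kinds lie on both sides of 0; Dlk1 rests on 1 count in the 2 wild-type libraries together.

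Imprinted genes on other chromosomes and elsewhere on chromosome 6 were compared by the parental copy they are known to be expressed from. Of 23 tested paternally expressed genes, 11 were higher, 2 lower and 10 did not pass (edgeR quasi-likelihood, Benjamini-Hochberg), with a median log2 fold change of 0.18. Of 22 tested maternally expressed genes, 4 were higher, 9 lower and 9 did not pass, with a median of -0.23. These stand beside the median of 0.0015 and the 15.5% called among all tested genes. The lists were chosen with earlier results of these data known, and members of 1 imprinted domain are not independent. The parental labels were taken from prior knowledge, which may come from other tissues. Which copy was expressed in these cells was not measured.
Among the paternally expressed genes, Slc38a4, an amino acid transporter, had 32.7 and 36.3 CPM in the knockout and 4.94 and 5.97 CPM in wild type. Its log2 fold change was 2.65 ± 0.23 (edgeR adjusted p = 2.32e-10). Magel2, a ubiquitin ligase regulator of the Prader-Willi region, rose by 1.02 ± 0.17 (edgeR adjusted p = 5.40e-05), and Nnat, neuronatin, by 2.80 ± 0.51 (edgeR adjusted p = 1.34e-04). Zdbf2 went the other way, at -0.34 ± 0.07 (edgeR adjusted p = 3.12e-04). Dlk1 had 22 and 17 counts in the knockout and 1 and 0 in wild type, a ratio of 36.7 with an exact 95% counting interval of 6.22 to 1488.
Among the maternally expressed genes, H19, a non-coding RNA, had 93.6 and 94.8 CPM in the knockout and 26.7 and 31.0 CPM in wild type. It rose by 1.70 ± 0.13 (edgeR adjusted p = 1.11e-11). Rian, a non-coding RNA of the Dlk1-Meg3 domain, rose by 0.35 ± 0.05 (edgeR adjusted p = 1.75e-06). Igf2r, the receptor that clears IGF2, had 175 and 153 CPM against 255 and 272 CPM, a change of -0.68 ± 0.08 (edgeR adjusted p = 4.81e-08). The library kit's strand setting is not stated, so Igf2r cannot be told apart from reads of its antisense partner Airn, which had 10 and 10 counts in the knockout and 0 and 0 in wild type. Grb10, a growth factor receptor adaptor, changed by -0.62 ± 0.08 (edgeR adjusted p = 1.94e-07). Of these 8 genes, with Dlk1 and Airn aside, each was still called when any 1 library was left out. With limma on TPM, Magel2 (adjusted p = 0.0932), Nnat (0.108), Zdbf2 (0.188) and Igf2r (0.058) were not, and with length offsets in edgeR Nnat was not (adjusted p = 0.092).

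Factors that act on imprints or DNA methylation, partners of the cluster proteins and cell type markers were taken as further lists. Their counts stand beside 8.21% called higher and 7.32% called lower of all tested genes and a median of 0.0015. Of 16 tested factors that act on imprints or DNA methylation, 4 were higher, 1 was lower and 11 did not pass, with a median log2 fold change of 0.11. The list includes Tet1, Tet2 and Tet3. Tet1 was among the higher genes, at 0.22 ± 0.08 (edgeR adjusted p = 0.0435), and ran from 0.13 to 0.31 over the other fits. It was not called with DESeq2 (adjusted p = 0.177) or limma on TPM (0.642). In edgeR, length offsets (adjusted p = 0.309) and scaling without TMM (0.0812) also ended its call. Ctcf, the insulator protein, rose by 0.38 ± 0.08 (edgeR adjusted p = 6.99e-04), and lies on chromosome 8. Uhrf1, which recruits the maintenance methyltransferase, rose by 0.27 ± 0.07 (edgeR adjusted p = 0.00481). Trim28, the co-repressor that acts at imprinting control regions, rose by 0.16 ± 0.04 (edgeR adjusted p = 0.00981), and Dnmt3b, a de novo DNA methyltransferase, was lower, at -0.19 ± 0.05 (edgeR adjusted p = 0.00786). Trim28 was not called when knockout replicate 3 (edgeR adjusted p = 0.0586) or wild-type replicate 2 (0.0795) was left out, nor Dnmt3b when replicate 2 of the knockout (0.0622) or of wild type (0.0655) was. With limma on TPM, Ctcf (adjusted p = 0.092), Uhrf1 (0.216), Trim28 (0.696) and Dnmt3b (0.158) were not called. With length offsets in edgeR, Ctcf was called, and Uhrf1 (adjusted p = 0.0779), Trim28 (0.433) and Dnmt3b (0.102) were not.

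Relatives and partners of the cluster proteins came next. Of 9 tested genes with a retrotransposon-derived gag, as in Peg10, 3 were higher and 6 did not pass, with a median of -0.03. Pnma5 had 39 and 36 counts in the knockout and 0 and 0 in wild type, at least 23.5-fold higher when the wild-type pair is set to the floor of 3 counts in total. Arc, a gag-like gene of neurons, rose by 2.02 ± 0.32 (edgeR adjusted p = 1.47e-05), and Rtl8a rose by 0.60 ± 0.11 (edgeR adjusted p = 1.69e-04). With limma on TPM these 2 were not called (adjusted p = 0.081 and 0.0698).
Of 16 tested genes of the dystrophin-associated complex, to which Sgce belongs, 2 were higher and 14 did not pass, with a median of -0.04. Sntb2, a syntrophin on chromosome 8, rose by 0.85 ± 0.17 (edgeR adjusted p = 3.42e-04). Utrn, utrophin, rose by 0.22 ± 0.07 (edgeR adjusted p = 0.0185). Leaving out replicate 2 of the knockout (edgeR adjusted p = 0.253) or of wild type (0.171) ended its call, as did DESeq2 (0.0723) and length offsets (0.148). Neither gene was called with limma on TPM (adjusted p = 0.117 for Sntb2 and 0.513 for Utrn).
Of 21 tested ASB and cullin 5 genes, relatives of Asb4, 2 were higher, 1 lower and 18 did not pass, with a median of -0.00088. Asb13 rose by 1.38 ± 0.30 (edgeR adjusted p = 0.00109). Cul5, the cullin that ASB proteins join, rose by 0.31 ± 0.11 (edgeR adjusted p = 0.0446), but this call was lost when any 1 library was left out (edgeR adjusted p from 0.106 to 0.174). Cish, a SOCS family member, changed by -0.66 ± 0.23 (edgeR adjusted p = 0.044). Leaving out knockout replicate 3 (edgeR adjusted p = 0.307) or wild-type replicate 3 (0.365) ended that call. With DESeq2, limma on TPM or length offsets, Cish and Cul5 were not called (adjusted p from 0.222 to 0.64).
Of 18 tested sialic acid genes, the pathway of Casd1, 0 were called by edgeR's quasi-likelihood test, 4 had an unadjusted p under 0.05, 0 were called by DESeq2 and 1 by limma voom, and the median was 0.05. St8sia4, a polysialyltransferase, was at 0.72 ± 0.25 (edgeR adjusted p = 0.0531). Of 17 tested partners of neurabin and protein phosphatase 1, 2 were higher, 1 lower and 14 did not pass, with a median of 0.05. Rgs2, a regulator of G-protein signalling, had 49 and 16 counts in the knockout and 0 and 0 in wild type, at least 20.4-fold higher against the same floor. It was not called with limma on TPM (adjusted p = 0.0866). Ppp1r18 at 0.48 ± 0.16 and Ppp1r2 at -0.24 ± 0.08 were the others called, and each call was lost when any 1 library was left out. Of 19 tested antioxidant and lipid redox genes, the setting of the paraoxonases, 4 were higher and 15 did not pass, with a median of 0.08. These were Prdx2, Nqo1, Hmox1 and Gsr, from 0.53 to 1.37, and all 4 lie on chromosome 8. With limma on TPM, Nqo1 (adjusted p = 0.0655) and Gsr (0.0667) were not called.

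Marker lists of cell types differed in how many of their genes were called. Summed TPM of 7 primed epiblast genes was 2516 and 2541 in the knockout and 2640 and 2637 in wild type. Much of that sum is T, at 1214 and 1261 TPM against 1211 and 1235, with a log2 fold change of 0.02 ± 0.05. Of the 7 genes, 5 were lower by edgeR's test, among them Otx2 at -1.18 and Sox2 at -1.14. The 1 higher gene was Pou5f1, at 0.21 and with 723 and 726 TPM against 644 and 636. It was not called with limma on TPM (adjusted p = 0.148) or with length offsets in edgeR (0.0741). In the same order, neither fit called Fgf5 (adjusted p = 0.121 and 0.0679), Dnmt3b (0.158 and 0.102) or Pou3f1 (0.162 and 0.122). DESeq2 did not call Pou3f1 either (adjusted p = 0.0832). Otx2 and Sox2 stayed called in each of these fits. Summed TPM of 11 trophoblast genes was 28.7 and 27.7 in the knockout and 42.8 and 42.9 in wild type, with 1 of 6 tested higher and 1 lower. The higher gene was Gcm1, at 1.52 ± 0.52 (edgeR adjusted p = 0.0448). It was not called with DESeq2 (adjusted p = 0.187), limma voom (0.0517) or limma on TPM (0.0966). In edgeR, length offsets (adjusted p = 0.131) and scaling without TMM (0.0518) also ended its call. Its log2 fold change ran from 1.12 to 1.80 over the other fits. The lower gene was Krt7, at -1.01 ± 0.17 (edgeR adjusted p = 3.92e-05), which was not called with limma on TPM (adjusted p = 0.108). Krt7 was also a large part of the sum, at 11.9 and 8.61 TPM in the knockout and 23.2 and 18.1 TPM in wild type. Of the untested genes, Prl3d1, a placental gene, had 0 counts in every library, and Cdx2 had 4, 5, 5 and 2 counts. Primitive endoderm genes summed to 239 and 233 TPM against 275 and 290. That sum is mostly Foxa2, at 203 and 189 TPM against 210 and 225, with a log2 fold change of -0.04 ± 0.08. Of the 6 tested, 2 were lower, Sox17 at -1.24 ± 0.22 and Gata6 at -1.15 ± 0.36. Gata6 was not called with DESeq2 (adjusted p = 0.136), limma on TPM (0.121) or length offsets in edgeR (0.107). Neuron genes summed to 115 and 189 TPM against 89.4 and 89.3, with 2 of 4 tested higher, 1 of them on chromosome 8. Stmn2, among these 2, was not called with limma on TPM (adjusted p = 0.206) or with length offsets in edgeR (0.0866). Muscle genes summed to 101 and 108 TPM in the knockout and 91.6 and 89.4 in wild type. For the 3 tested, 1 of them on chromosome 8, edgeR adjusted p ran from 0.108 (Acta1) to 0.972 (Actc1). Fibroblast genes summed to 130 and 143 TPM against 183 and 193, a sum that is mostly Acta2, a smooth muscle actin at 110 and 121 TPM against 153 and 159. Sum and members differed in sign there: the median log2 fold change of the 6 tested was 0.35, Col3a1, a collagen III chain, was called higher at 3.58 ± 0.66 and Acta2 and Postn were called lower at -0.39 ± 0.09 and -1.28 ± 0.24. The part of these in the cluster's values was not tested.

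Genes with the most similar profile over the 4 libraries were found by the distance between log2 CPM values centred per gene, among 10920 candidates, as a description with n = 4 libraries. The 4 nearest to Asb4 were Cer1 (distance 0.178), Ryr2 (0.338), Naip6 (0.429) and Cfc1 (0.562). Cer1, a Nodal and BMP antagonist, had 32.8 and 29.6 CPM in the knockout and 176 and 188 CPM in wild type. The nearest to Peg10 were Kif5a (0.0709), Slc5a5 (0.0797), Mt1 (0.0892) and Echdc2 (0.092), of which Slc5a5 and Mt1 lie on chromosome 8. The nearest to Sgce were Liph (0.0379), Dgka (0.0893), Ntpcr (0.114) and Acss2 (0.128), of which Ntpcr lies on chromosome 8. Sgce ranked 323 in nearness to Peg10 and Asb4 ranked 10906, close to the far end of the list.

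**Figure D5:**
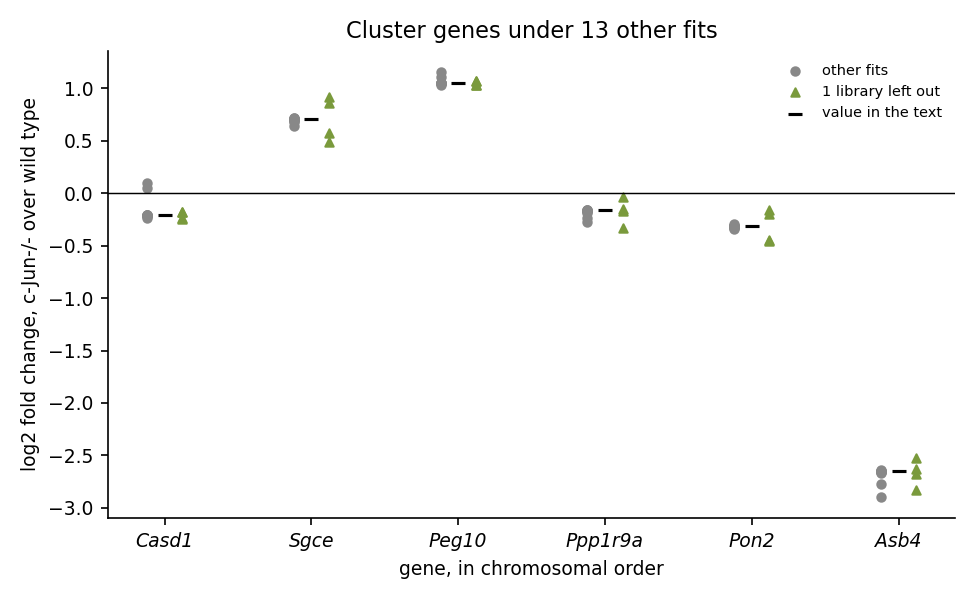
Log2 fold change, knockout over wild type, of the 6 tested cluster genes in 13 other fits: grey circles are 9 other settings, green triangles the fits with 1 library left out, and the black bar is the value in the text. Peg10 stays between 1.03 and 1.16, Sgce between 0.49 and 0.92, and Asb4 between -2.89 and -2.52.

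The fold changes of Peg10 and Asb4 varied little between the 13 other fits, from 1.03 to 1.16 and from -2.89 to -2.52. That of Sgce ranged from 0.49 to 0.92, Pon2 from -0.45 to -0.16 and Ppp1r9a from -0.33 to -0.04. Casd1 was the only tested cluster gene whose sign changed, with a range of -0.24 to 0.094.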

How the data were processed

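RNA of 4 iEpiSC libraries was measured, 2 per genotype. The tools named in the submitters' processing notes are bcl2fastq, Bowtie2 and RSEM, and the build is mm10. Their versions, and the annotation release, were not given in the sources used here. The authors deposited 1 table per library with the expected count per gene (an estimate that need not be whole). Per the file headers, the tables also hold TPM, FPKM and an effective length. FPKM, as deposited, entered no test. Of expected counts above 0, 86.2% to 87.1% were whole.

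Of 29267 gene identifiers, 28756 matched GENCODE M21 (GRCm38). Expected counts were rounded, filtered with filterByExpr (minimum count 10, minimum total 15), scaled by TMM (0.988 to 1.0085) and compared with edgeR 4.0.16 (glmQLFit, glmQLFTest; R 4.3.3), with Benjamini-Hochberg adjustment over 12598 genes, a threshold of 0.05 and no covariate. The biological coefficient of variation was 6.5%. Within a genotype, libraries differed beyond counting noise (2.51 and 2.54 as chi-square over its degrees of freedom), so none was treated as a duplicate. CPM are counts per 1000000 with TMM-scaled library sizes. The script was tested on simulated data. Fits with DESeq2 1.42.0, limma 3.58.1 (voom, and log2(TPM + 1)), other scalings and filters, length offsets, a replicate block and 1 library left out were alternatives.

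The members and lists were chosen with earlier results of these data known. Named were all 7 members, tested protein-coding neighbours within 1 Mb, up to 4 tested genes of each list with the smallest p, and the 4 genes nearest to Asb4, Peg10 and Sgce (mean CPM of 5 or more, prior count 2). Dlk1, Airn, Prl3d1, Cdx2, Samd9l, Tet1, Pou5f1, Pou3f1, Foxa2 and T were chosen after their values were seen.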

Additional observations from a re-analysis of the deposited data

How the results depend on the processing

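Higher and lower calls over all genes numbered 1034 and 922, against 650 and 473 with DESeq2, 250 and 170 with limma on TPM, and 498 and 341 with length offsets. Among imprinted genes elsewhere, 15 higher calls became 5 with limma on TPM and 6 with offsets, and 11 lower calls became 7 with DESeq2, 4 with limma on TPM and 7 with offsets. The other lists, here and below, leave out the cell type markers. In them, 17 higher calls became 4 with limma on TPM, and 3 lower calls became 1 with each of DESeq2, limma on TPM and offsets. Of the cluster genes, 2 higher calls became 1 with limma on TPM and 1 with offsets. The log2 fold change of Peg10 (1.05) was 1.11 with limma on TPM and 1.16 with offsets, that of Asb4 (-2.65) was -2.89 with offsets, and that of Casd1 (-0.21) was 0.052 with limma on TPM and 0.094 with offsets. A 2 Mb window gave 1 higher call among neighbours, where 1 Mb gave 0. The cause was not tested, except that the wider window holds more genes.

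Leaving out 1 library at a time gave 762 to 854 higher and 575 to 788 lower calls over all genes. It gave 11 to 13 higher and 7 to 10 lower imprinted genes elsewhere, 13 to 14 higher and 1 to 2 lower in the other lists, 1 to 2 higher and 1 lower cluster genes, and 0 to 1 higher neighbours. Log2 fold changes ranged from 1.03 to 1.07 for Peg10, 0.49 to 0.92 for Sgce, -0.24 to -0.17 for Casd1, -0.33 to -0.036 for Ppp1r9a, -0.45 to -0.16 for Pon2 and -2.83 to -2.52 for Asb4. A lone library was assumed to vary like the other genotype's.

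With the replicate number as a block, 1250 genes were higher and 1127 lower. Deviations of same-numbered libraries correlated at 0.022, which cannot show whether such libraries share a batch. With 2 pairs the pairing is not established. The block gave Peg10 1.05, Sgce 0.72, Casd1 -0.21, Ppp1r9a -0.17, Pon2 -0.32 and Asb4 -2.66. Pon3 could be fitted only with no filter. Depth limits Pon3 and the knockout isoform shares of Asb4, and no allele can be resolved.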
